A study of Mus musculus with 12 samples.

Results

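Heat shock proteins, the J-domain proteins that work with them, the heat shock factors Hsf1 and Hsf2, and the Bag co-chaperones were examined in mouse dorsal root ganglia, the clusters of sensory nerve cell bodies beside the spinal cord. Members were all protein-coding genes of the deposited table whose names begin with Hspa, Hspb, Hspd, Hspe, Hsph, Hsp90, Dnaja, Dnajb or Dnajc, together with Hsf1, Hsf2 and Bag1 to Bag6. This rule on names gave 80 members of 54532 genes. Total RNA of whole ganglia was sequenced as 12 libraries, 6 control and 6 DAAO, all from C57BL/6 mice and all labelled with D-Alanine treatment. The controls carried the genotype CDH5-Cre, in which the promoter of the vascular cadherin gene Cdh5 drives Cre recombinase in endothelium. The other group carried the genotype DAAO-TGCdh5, a label that names DAAO and Cdh5, while Cre appears only in the sample names. DAAO, D-amino acid oxidase, oxidises D-alanine and releases hydrogen peroxide, and the comparison asked how these transcripts differed between the genotypes. The sources used here give neither age, sex, dose nor duration, nor whether each library came from a separate animal, so the p-values measure the spread between these samples.

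Molecular chaperones bind unfolded stretches of other proteins and return them to their folded state. The Hsp70 proteins do this in cycles of ATP hydrolysis that J-domain proteins start, and that Hsp110 and Bag proteins end by nucleotide exchange. Hsp90 takes clients such as kinases and steroid receptors from Hsp70, the mitochondrial chaperonin encloses its clients in a cage, and small heat shock proteins hold unfolded proteins without ATP. Under heat or oxidative stress Hsf1 binds heat shock elements, inverted repeats of a short unit containing GAA, and switches on the inducible members. Sensory neurons are rich in the small heat shock protein Hspb1, and mutations of the human genes HSPB1, HSPB8, DNAJB2 and BAG3 cause inherited neuropathies.

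The sequences in front of the start sites of 5 members show how these elements are laid out near genes whose values follow. They are 200 bases upstream of the annotated start, read 5′ to 3′ on the strand of the gene, from RefSeq's table for GRCm38.p6. Capitals mark matches to 2 adjoining units, GAANNTTC or TTCNNGAA, and to the 3-unit forms GAANNTTCNNGAA and TTCNNGAANNTTC, which contain the 2-unit forms and overlap them. Both strands were searched.
Hspe1, chr1:55087948-55088147, plus strand: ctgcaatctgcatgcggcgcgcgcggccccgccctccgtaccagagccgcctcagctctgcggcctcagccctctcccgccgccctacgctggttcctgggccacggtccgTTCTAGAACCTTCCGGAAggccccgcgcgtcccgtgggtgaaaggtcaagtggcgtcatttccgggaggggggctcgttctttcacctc
Dnajb6, chr5:29735698-29735897, plus strand: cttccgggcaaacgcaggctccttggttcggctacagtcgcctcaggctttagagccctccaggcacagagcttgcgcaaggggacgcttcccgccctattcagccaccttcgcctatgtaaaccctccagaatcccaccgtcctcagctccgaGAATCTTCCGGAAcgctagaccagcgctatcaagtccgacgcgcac
Hsph1, chr5:149636337-149636536, minus strand: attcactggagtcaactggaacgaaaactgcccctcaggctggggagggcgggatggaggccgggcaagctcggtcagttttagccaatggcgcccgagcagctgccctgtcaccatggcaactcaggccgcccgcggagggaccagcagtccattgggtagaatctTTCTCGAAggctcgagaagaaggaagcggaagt
Hspa1b, chr17:34959239-34959438, minus strand: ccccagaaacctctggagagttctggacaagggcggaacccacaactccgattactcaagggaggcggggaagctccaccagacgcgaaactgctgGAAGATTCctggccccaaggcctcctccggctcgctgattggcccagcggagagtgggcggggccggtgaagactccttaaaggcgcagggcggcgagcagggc
Hspb1, chr5:135887719-135887918, plus strand: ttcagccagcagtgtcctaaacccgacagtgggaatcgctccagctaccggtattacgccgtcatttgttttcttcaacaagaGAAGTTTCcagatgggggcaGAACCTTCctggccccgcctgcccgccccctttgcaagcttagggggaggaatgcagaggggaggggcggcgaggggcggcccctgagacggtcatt
Hspe1 and Hspd1, which lie head to head and encode the mitochondrial chaperonin and its lid, share the stretch printed under Hspe1. Of the 80 members, 64 matched the table, which gives 250 bases before and 50 after each start. Hsp90aa1, Hsp90ab1, Hspa8 and Hsf1 were among those without an entry, so their promoters were not searched. Dnajb1 was searched and held neither form. A 3-unit match was held by 4 of the 64, Hspe1, Hspd1, Dnajb6 and Hsph1, where it lies after the start and so outside the printed bases. That is 6.25%, against 0.662% of the 27025 genes with a promoter in the table. A 2-unit match was held by 17 members, 26.6%, against 17% of all those genes. A match is a description of these letters, and the members were not tested against other genes for it.

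Each library held between 13227518 and 23884927 counts, and 17002 genes had enough counts to be tested. The sum of the members made up 1.42% to 1.6% of the counts of a control library and 1.14% to 1.59% of those of a DAAO library. The ganglion was recognised by the summed level of 8 sensory neuron markers, 7533 to 12910 CPM (read counts relative to a library size that TMM factors adjust) in controls and 6091 to 10670 in DAAO, and none of the 8 was at 0 in all libraries. Neighbouring tissue varied between libraries. Skeletal muscle markers summed to 15.6 to 2988 CPM in controls and 11.8 to 494 in DAAO, and spinal cord oligodendrocyte markers to 674 to 5702 and 1041 to 2274. In 5 libraries, 2 of them controls and 3 DAAO, Xist and the sum of 4 Y-linked genes each exceeded 10 CPM, so these may not be libraries of single animals.

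No member passed the test. Of the 74 members with enough counts, 0 differed between DAAO and control in the quasi-likelihood test of edgeR at a threshold of 0.05, with p adjusted over all 17002 genes, beside 0.753% of all genes tested. DESeq2 called 1 member, Hsp90aa1, and limma-voom called 0. An unadjusted p under 0.05 was reached by 7 members, 9.46% of the 74, beside 10.3% of all genes. Leaving out 1 library moved this count by more than 1.5 times to 2 (without DAAO 1 or DAAO 6), 4 (without DAAO 2) or 11 (without control 2), and it was 17 without controls 2 and 6 together and 3 when libraries were scaled by their totals alone. With all libraries, all 7 had negative log2 fold changes (DAAO minus control): Hsp90aa1, Hsph1, Dnajb14, Dnajc15, Hspa8, Hspa4l and Hspb6. At that threshold 4.87% of all genes were lower and 5.44% higher. The groups did not overlap in 0 members, beside 1.45% of all genes tested.

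Most members were measured closely enough to bound the difference. The 95% interval of the log2 fold change lay within 1 either way, a doubling or a halving, in 64 members, and reached past it in 10, most of them of low abundance. The estimate itself lay within 0.5 of 0 in 68 of the 74. It was negative in 52 members, 70.3%, with a median of -0.09, while it was negative in 49.6% of all genes, with a median of 0.00. Scaling by library totals alone moved the median of all genes to 0.05 and the share of negative members to 58.1%. In bulk ganglia, fewer cells of a type and less RNA per cell cannot be told apart. Markers of some cell types had mostly negative estimates in the same libraries, and those of others mostly positive ones. All 7 markers of proprioceptors and large neurons had negative estimates, with a median of -0.68, and 3 passed the test (Runx3, Etv1 and Whrn); their sum ran from 1644 to 3416 CPM in controls and from 1265 to 1897 in DAAO. All 8 markers of myelinating Schwann cells had negative estimates, with a median of -0.50, and 0 passed; their sum ran from 6226 to 22280 CPM and from 6438 to 7591. Of 7 repair Schwann cell markers 6 had positive estimates, with a median of 1.07 over the list, and 3 passed as higher. Of 7 macrophage markers 6 had positive estimates, with a median of 0.72, and 0 passed. All 6 fibroblast markers had positive estimates, with a median of 0.47, and 0 passed. The 8 sensory neuron markers had 5 negative and 3 positive estimates, with a median of -0.05. The 6 endothelium markers had 4 negative and 2 positive estimates, with a median of -0.30, and 0 passed. The 5 satellite glia markers had 4 and 1, with a median of -0.43, and 0 passed. The 6 markers of pericytes and smooth muscle had 5 and 1, with a median of -0.16, and 0 passed. No marker of these lists was at 0 in all libraries, and their part in the members' values was not tested. The lists were chosen with earlier results of these data known, so their directions and calls are no independent reading of cell types.

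**Figure D1:**
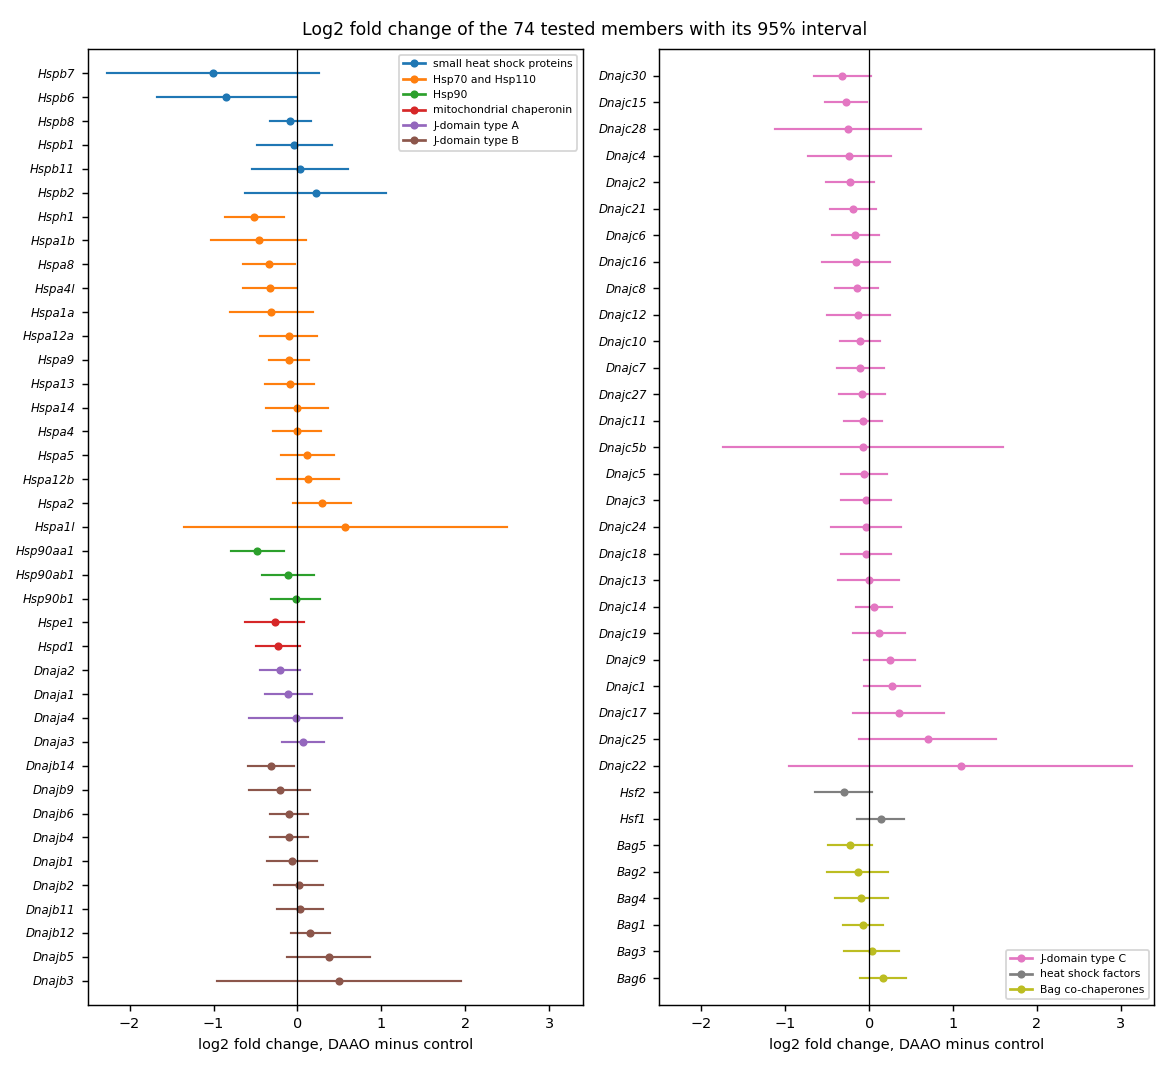
Log2 fold change, DAAO minus control, of the 74 tested members with its 95% interval from edgeR (x axis, log2), grouped by role (colour). No member passed at an adjusted p under 0.05, and 52 of the 74 points lie left of 0.

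By level per kilobase the highest member was an Hsp90 gene, whereas by CPM it was Hspa8, so the ranking turns on the gene lengths used. Hspa8 averaged 3725 CPM in controls and 2948 in DAAO, and Hsp90ab1 averaged 2888 and 2674. Per kilobase of gene length, Hsp90ab1, the constitutive cytosolic form, stood at 927 CPM per kb over the 12 libraries, Hsp90aa1, the stress-inducible cytosolic form, at 472, and Hsp90b1, the form of the endoplasmic reticulum, at 70.5. Hsp90aa1 (ENSMUSG00000021270, chromosome 12, 110690605 to 110702728, GRCm38) ranged from 1848 to 2526 CPM in controls, with a median of 2168, and from 1136 to 2010 in DAAO, with a median of 1456. All 6 DAAO libraries lay below the control median, but DAAO 4 and 5, at 2010 and 1860, lay within the control range. Its log2 fold change was -0.48 ± 0.15 (SE), a ratio of 0.718, with an adjusted p of 0.204 by edgeR.

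Hsp90ab1 ranged from 2558 to 3610 CPM in controls, with a median of 2734, and from 2046 to 3296 in DAAO, with a median of 2639. These ranges overlapped over most of their length, and the log2 fold change was -0.11 ± 0.15, with a 95% interval from -0.42 to 0.20. Hsp90b1 ran from 225 to 346 CPM in controls and from 219 to 341 in DAAO, with a log2 fold change of -0.02 ± 0.14 whose sign changed with the scaling.

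Among the Hsp70 and Hsp110 genes, 14 were tested, and 10 had negative and 4 positive log2 fold changes, with a median of -0.10. Hspa8 (ENSMUSG00000015656, chromosome 9, 40800984 to 40810087), the constitutive cytosolic Hsp70, was the highest at 776 CPM per kb. It measured 3168 to 4429 CPM in controls, with a median of 3670, and 2116 to 3701 in DAAO, with a median of 2856. DAAO 4, at 3701, was the DAAO library above the control median, and the other 5 lay below it. The log2 fold change of Hspa8 was -0.34 ± 0.15, with an adjusted p of 0.445 by edgeR; 3 small nucleolar RNA genes lie inside it on the same strand.

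Hsph1 (ENSMUSG00000029657, chromosome 5, 149614287 to 149636376), the stress-inducible Hsp110 that exchanges nucleotide on Hsp70, had the smallest adjusted p of this class. It ran from 225 to 338 CPM in controls, with a median of 278, and from 139 to 253 in DAAO, with a median of 193. DAAO 1, 2, 3 and 6, at 156, 139, 166 and 219 CPM, lay below every control, whereas DAAO 4 and 5, at 249 and 253, lay above controls 2 and 6. Its log2 fold change was -0.51 ± 0.16, with an adjusted p of 0.218 by edgeR.

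The other 2 Hsp110 relatives are Hspa4l and Hspa4. Hspa4l ran from 116 to 232 CPM in controls and from 122 to 170 in DAAO, with a log2 fold change of -0.33 ± 0.15 and an adjusted p of 0.46 by edgeR. Hspa4 ran from 163 to 260 CPM and from 179 to 238, with a log2 fold change of -0.01 ± 0.14. Controls 2 and 6 were the lowest controls for both genes.

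Hspa1a and Hspa1b encode the stress-inducible Hsp70, which heat shock raises steeply from a low resting level. Their coding sequences, of 1923 and 1926 bases, were identical at 98.2% of positions when compared base by base without alignment. The 200 bases upstream were identical at 99.5%. Reads may thus be divided between the 2 genes in a way the count table does not show. Hspa1b measured 15.3 to 37.4 CPM in controls, with a median of 27.4, and 11.9 to 32.2 in DAAO, with a median of 17.5. DAAO 1, 2 and 3 were the lowest, at 11.9, 13.1 and 12.5, and the other 3 DAAO libraries lay within the control range. The log2 fold change was -0.46 ± 0.27, with a 95% interval from -1.03 to 0.10. Hspa1a ran from 8.34 to 18.4 CPM in controls and from 7.23 to 13.6 in DAAO, with a log2 fold change of -0.31 ± 0.24, which was -0.16 without control 4. A log2 fold change of 1, a doubling, lay outside the intervals of both genes.

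Organelles have Hsp70 genes of their own. Hspa5, the Hsp70 of the endoplasmic reticulum, ran from 255 to 376 CPM in controls and from 235 to 438 in DAAO, with a log2 fold change of 0.12 ± 0.15. Hspa9, the mitochondrial Hsp70, ran from 182 to 258 and from 185 to 219, with a log2 fold change of -0.10 ± 0.11. Hspa2, a relative known best from spermatogenesis, had a positive estimate of 0.29 ± 0.16, from a control median of 27.8 to a DAAO median of 36.8 CPM, with an adjusted p of 0.584 by edgeR. Hspa1l, mostly a gene of the testis, averaged under 1 CPM in each group, and its interval from -1.35 to 2.49 bounds nothing of use.

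**Figure D2:**
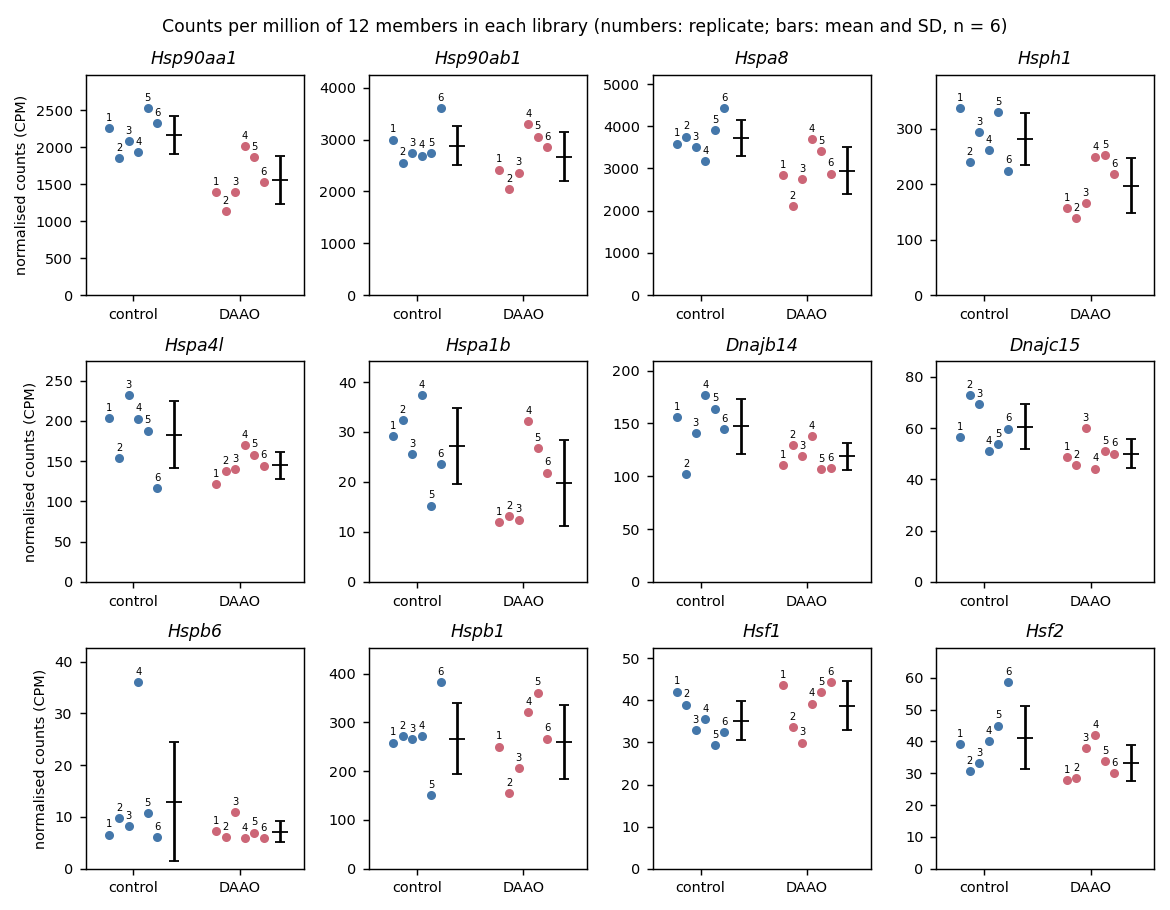
Normalised counts (CPM, y axis from 0) of 12 members in each library (points numbered by replicate, bars mean ± SD, n = 6 per group). Hsp90aa1, Hsph1, Hspa8 and Hspa1b were lowest in DAAO 1, 2 and 3, the groups overlap in every panel, and control 4 stands at 36.1 CPM for Hspb6.

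The mitochondrial chaperonin genes Hspd1 (Hsp60) and Hspe1 (Hsp10) overlap at their head-to-head starts on chromosome 1, and pseudogenes carried counts equal to 3.15% and 0.395% of theirs. Hspd1 ran from 221 to 274 CPM in controls, with a median of 253, and from 164 to 261 in DAAO, with a median of 215. Hspe1 ran from 60 to 143 and from 79.7 to 105 CPM. The log2 fold changes were -0.23 ± 0.12 and -0.27 ± 0.17, with adjusted p of 0.561 and 0.631 by edgeR.

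Of the 8 genes sorted as small heat shock proteins by their Hspb symbols alone, 6 were tested, Hspb11 among them. Hspb1 (Hsp27), abundant in sensory neurons and at 256 CPM per kb the highest of its class, ran from 150 to 383 CPM in controls, with a median of 269, and from 154 to 361 in DAAO, with a median of 259. The groups covered nearly the same range, and the log2 fold change was -0.04 ± 0.21, with a sign that changed with the scaling. Hspb8, which works with Bag3 in clearing misfolded proteins, ran from 259 to 331 and from 237 to 332 CPM, with a log2 fold change of -0.08 ± 0.11.

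Hspb6 (Hsp20), a gene known best from muscle, was lower at an unadjusted p under 0.05, and this rested on control 4. That library stood at 36.1 CPM and the other 5 controls at 6.09 to 10.8, beside 5.94 to 11 in DAAO. Control 4 also had the highest sum of muscle markers, 2988 CPM, with all 10 tested muscle markers negative and a median log2 fold change of -2.34. The log2 fold change of Hspb6 was -0.85 ± 0.39 with an adjusted p of 0.473 by edgeR, -0.20 without control 4, and -0.29 with the muscle level of each library as a term, where the unadjusted p was 0.346. Over the other 5 controls Hspb6 rose with the muscle sum, from control 6 (15.6 CPM of muscle markers) to control 5 (1188). In DAAO that order was not kept. DAAO 2 had less Hspb6 than DAAO 1, though its muscle sum was 281.5 CPM against 24.95. Whether the estimate follows the muscle level or another property of control 4 was not tested. Hspb6 also overlaps Lin37 and Proser3 on the other strand. Hspb7, another muscle gene, averaged 2.09 ± 1.68 CPM in controls and 1.04 ± 0.237 in DAAO, and its interval ran from -2.26 to 0.26.

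J-domain proteins fall into types A and B, which resemble bacterial DnaJ, and type C, which share little beyond the J domain. The 4 type A genes gave 3 negative and 1 positive estimates, the lowest of them -0.21. Dnaja2, the highest of them at 63.8 CPM per kb, ran from 172 to 233 CPM in controls and from 144 to 199 in DAAO, with a log2 fold change of -0.21 ± 0.11. Dnaja1 ran from 454 to 501 CPM in controls and from 339 to 567 in DAAO, with 4 DAAO libraries below every control, 1 within their range and 1 above it.

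Type B genes divided evenly, with 5 negative and 5 positive estimates in the 10 tested of 13. Dnajb1 (Hsp40), the inducible partner of Hsp70, ran from 50 to 74.3 CPM in controls and from 45.6 to 75.0 in DAAO, with a log2 fold change of -0.07 ± 0.14. Dnajb14, a J-protein of the endoplasmic reticulum membrane, had a control median of 150 and a DAAO median of 115 CPM, with a log2 fold change of -0.31 ± 0.13 and an adjusted p of 0.413 by edgeR. The groups overlapped, since control 2 stood at 102 CPM, below all 6 DAAO libraries. Dnajb12, a close relative of Dnajb14 in the same membrane, had a positive estimate of 0.15 ± 0.11. Dnajb5 stood at 9.04 to 26.2 CPM in controls and 16.7 to 24.6 in DAAO, with a log2 fold change of 0.37 ± 0.23. Dnajb2, a neuronal J-protein and the highest of type B at 23.7 CPM per kb, had medians of 102 CPM in both groups. Dnajb6, which suppresses aggregation of polyglutamine proteins and carries the 3-unit element printed above, had a log2 fold change of -0.10 ± 0.11.

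Of the 27 type C genes tested, 20 had negative and 7 positive estimates. Dnajc15, a J-protein of the mitochondrial inner membrane, ran from 51.1 to 72.9 CPM in controls and from 44.2 to 60.1 in DAAO, with a log2 fold change of -0.28 ± 0.12 and an adjusted p of 0.436 by edgeR. Dnajc30, another mitochondrial J-protein, had a control median of 16.8 and a DAAO median of 13.7 CPM; it overlaps Bud23 on the other strand. Dnajc5, the cysteine string protein of synaptic vesicles, ran from 170 to 298 CPM in controls and from 210 to 246 in DAAO, and Dnajc6, the neuronal auxilin that uncoats clathrin vesicles, from 121 to 201 and from 115 to 167. Their log2 fold changes were -0.06 ± 0.13 and -0.17 ± 0.13. Dnajc8, the highest per kilobase in this class at 35.5 CPM per kb, had a log2 fold change of -0.15 ± 0.12.

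Positive estimates in type C came mostly from genes of low level. Dnajc25 ran from 1.04 to 7.17 CPM in controls and from 3.79 to 9.14 in DAAO, with a log2 fold change of 0.70 ± 0.39. Dnajc22 had 0 counts in controls 2, 5 and 6 and averaged under 1 CPM in each group, so its estimate of 1.09 ± 0.97 is not informative. Dnajc1, a J-protein of the endoplasmic reticulum, had a control median of 17.8 and a DAAO median of 23.6 CPM. Dnajc9, a histone chaperone, had medians of 20.3 and 25.6, and in both genes all 6 DAAO libraries lay at or above the control median. Their log2 fold changes were 0.27 ± 0.16 and 0.25 ± 0.14, with adjusted p of 0.592 and 0.605 by edgeR. Dnajc17, linked to splicing, had an estimate of 0.35 ± 0.26 and overlaps Zfyve19 on the other strand.

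The transcription factors of the response were measured at moderate levels. Hsf1, which drives the heat shock response, ran from 29.3 to 42.1 CPM in controls and from 29.9 to 44.4 in DAAO, with a log2 fold change of 0.14 ± 0.13. Hsf2, which can form trimers with Hsf1, ran from 30.8 to 58.7 and from 27.8 to 41.9 CPM, with a log2 fold change of -0.30 ± 0.16 and an adjusted p of 0.555 by edgeR; without control 6, the highest library, it was -0.18. Hsf1 is activated as a protein, so its transcript does not measure its activity.

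Of the 6 Bag genes 4 had negative and 2 positive estimates, the largest in size being -0.23 for Bag5, an exchange factor. Bag1, the founding exchange factor of Hsp70, was the highest at 143 CPM per kb and ran from 157 to 231 CPM in controls and from 169 to 208 in DAAO. Bag3, which directs aggregated proteins to autophagy and is itself heat inducible, ran from 126 to 242 and from 163 to 248 CPM, with a log2 fold change of 0.03 ± 0.15. Bag6, which guards membrane proteins before their insertion, had medians of 147 and 156 CPM and a log2 fold change of 0.17 ± 0.13, which was 0.05 without control 5.

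**Figure D3:**
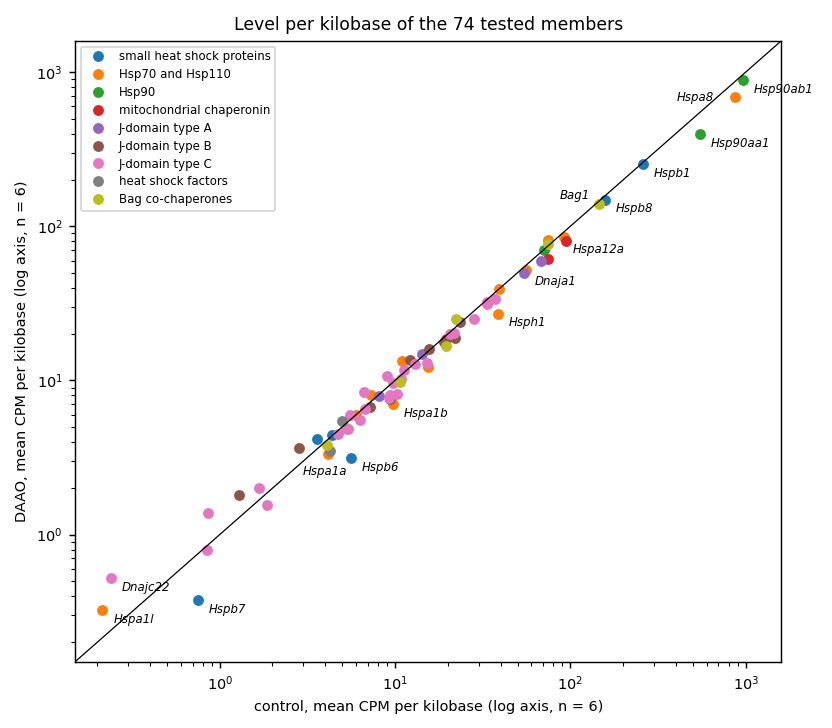
Mean level per kilobase of gene length (CPM per kb, both axes log) of the 74 tested members in controls (x) and DAAO (y), coloured by role. The line marks equal levels. Hsp90ab1, Hspa8 and Hsp90aa1 stand highest, and Dnajc22 and Hspb7, both under 1 CPM per kb, lie farthest from the line.

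The 6 members left out of the test were Dnajb13, Hspb3, Dnajb7, Hspb9, Dnajb8 and Dnajc5g. They held 74, 49, 26, 8, 2 and 1 counts over all 12 libraries. Several of them are known as genes of testis or muscle.

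The DAAO libraries also differed among themselves. DAAO 2 had the lowest sum over the members, 10997 CPM, followed by DAAO 1 at 12361 and DAAO 3 at 12604. DAAO 6 stood at 13884, and DAAO 5 and 4 at 15585 and 16029, within the control range of 14553 to 16991. Hspa8 and the cytosolic Hsp90 genes together made up 48.2% to 56.2% of the members' CPM in DAAO and 52.6% to 61.0% in controls, with DAAO 2, 3 and 6 below all controls and DAAO 1, 4 and 5 within their range. Over the 74 members, DAAO 1 was the lowest DAAO library for 23 and the highest for 5, DAAO 2 for 20 and 5, and DAAO 3 for 14 and 14. DAAO 4 was the lowest for 7 and the highest for 18, DAAO 5 for 7 and 25, and DAAO 6 for 3 and 7.

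Other measures differed between these libraries too. Spinal cord astrocyte markers summed to 545, 896 and 453 CPM in DAAO 1, 2 and 3 and to 132, 167 and 332 in DAAO 4, 5 and 6. Spinal cord oligodendrocyte markers summed to 2274, 2025 and 1950 CPM in DAAO 1, 2 and 3 and to 1151, 1041 and 1334 in DAAO 4, 5 and 6. Both sums were thus higher in each of DAAO 1, 2 and 3 than in each of DAAO 4, 5 and 6, and control 2 had the highest of all, at 1461 and 5702 CPM. The sensory neuron sum was 8867, 6091 and 6686 CPM in DAAO 1, 2 and 3 and 10670, 10280 and 8809 in DAAO 4, 5 and 6. Handling of tissue raises immediate early genes. The sum of 10 of them was 182, 210 and 265 CPM in DAAO 1, 2 and 3. In DAAO 4, 5 and 6 it was 148, 146 and 186 CPM. None of the 10 passed the test, and 9 had positive estimates. The smallest adjusted p was that of Fos, 0.0554 by edgeR, with a log2 fold change of 1.52 ± 0.34. Its mean was 8.67 CPM in controls and 24.9 in DAAO. DAAO 1 and DAAO 6 were close in the neuron sum and in the immediate early sum. In the neuron sum DAAO 2 was the lowest and DAAO 4 the highest DAAO library, as in the members' sum. DAAO 1, 3 and 6 stood in a different order. Among controls, control 2 was the lowest and control 6 the highest in the neuron sum, at 7533 and 12910 CPM. They were also the extremes of the members' sum, at 14553 and 16991 CPM. The other controls stood in a different order. Control 4 had 10440 CPM in the neuron sum and 14808 in the members' sum, and control 5 had 8195 and 15970. The immediate early sum was lowest in DAAO 5 and highest in DAAO 3. DAAO 4 and 5 were the DAAO libraries with Y-linked transcripts and 0 counts of Xist. With the oligodendrocyte level of each library as a term, 0 members were called and 5 had an unadjusted p under 0.05; the part of the other measures in the members' values was not tested.

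**Figure D4:**
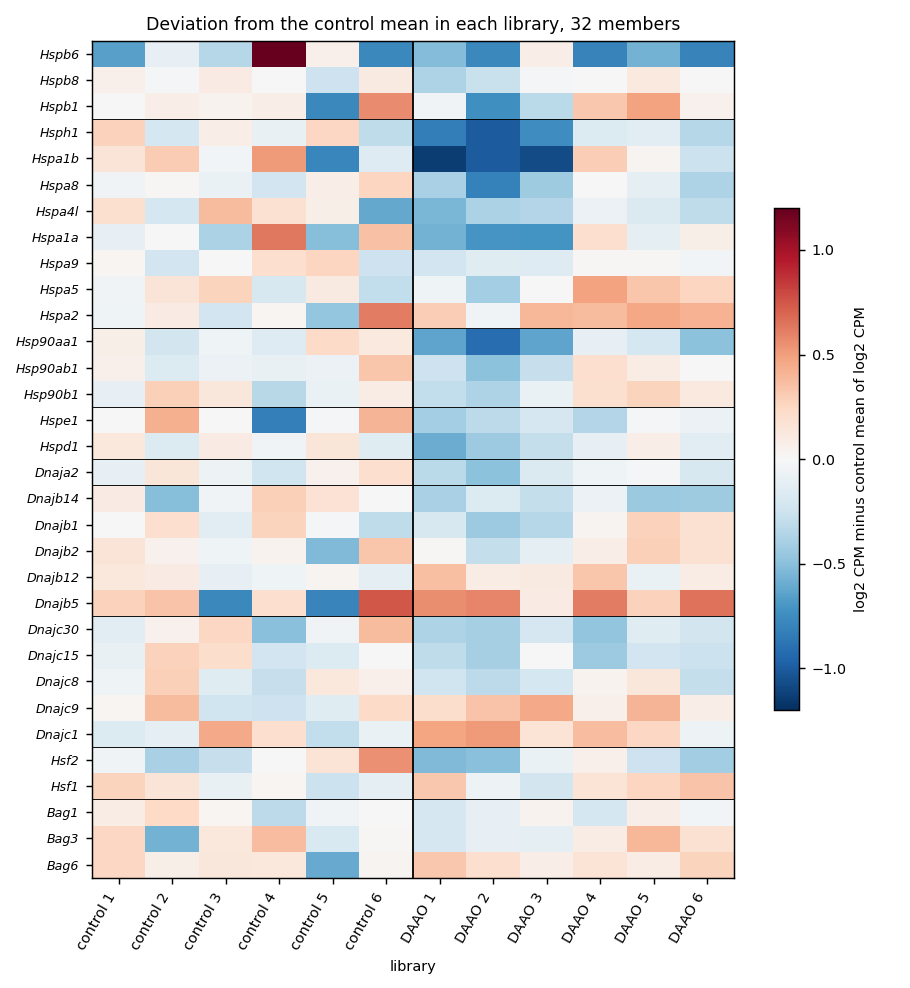
Log2 CPM minus the control mean (colour, log2) in each library (columns) for 32 members (rows), those named by a preset list, by small p or by level in their class and with a mean of at least 10 CPM. DAAO 1, 2 and 3 are the lowest for Hsp90aa1, Hsph1, Hspa8 and Hspa1b. Colour ends at 1.2, and Hspb6 in control 4 lies beyond it.

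Ratios within a library do not depend on how libraries are scaled. They were taken for 5 pairs of members chosen after their values had been seen, so they are given as a description with no test. The log2 ratio of Hsp90aa1 to Hsp90ab1 was -0.42 ± 0.17 in controls and -0.79 ± 0.08 in DAAO (mean ± SD, n = 6). It ran from -0.63 to -0.11 in controls and from -0.91 to -0.71 in DAAO, so the groups did not overlap. How often the ratios of other gene pairs also fail to overlap was not counted. The difference of -0.38 ± 0.08 (SE) stayed between -0.44 and -0.32 when each library, or controls 2 and 6 together, was left out. DAAO 4 and 5, whose levels of both genes lay within the control ranges, had ratios of -0.71 and -0.72.

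The log2 ratio of Hsph1 to Hspa4, an inducible and a constitutive Hsp110, was 0.38 ± 0.21 in controls and -0.17 ± 0.28 in DAAO. Control 4, at 0.03, lay below DAAO 4 and 5, at 0.11 and 0.09, and the other controls lay above all DAAO libraries. Hspa1b to Hspa8, an inducible and a constitutive Hsp70, gave -7.14 ± 0.56 and -7.31 ± 0.44, and Hspd1 to Hspe1 gave 1.23 ± 0.51 and 1.21 ± 0.16. Hsf2 to Hsf1 gave 0.20 ± 0.45 and -0.22 ± 0.38. In these 3 pairs the difference between the means was smaller than the larger SD. Leaving out each library, or controls 2 and 6 together, gave differences of -0.62 to -0.46 for Hsph1 to Hspa4, -0.34 to -0.02 for Hspa1b to Hspa8, -0.31 to 0.14 for Hspd1 to Hspe1 and -0.54 to -0.29 for Hsf2 to Hsf1.

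**Figure D5:**
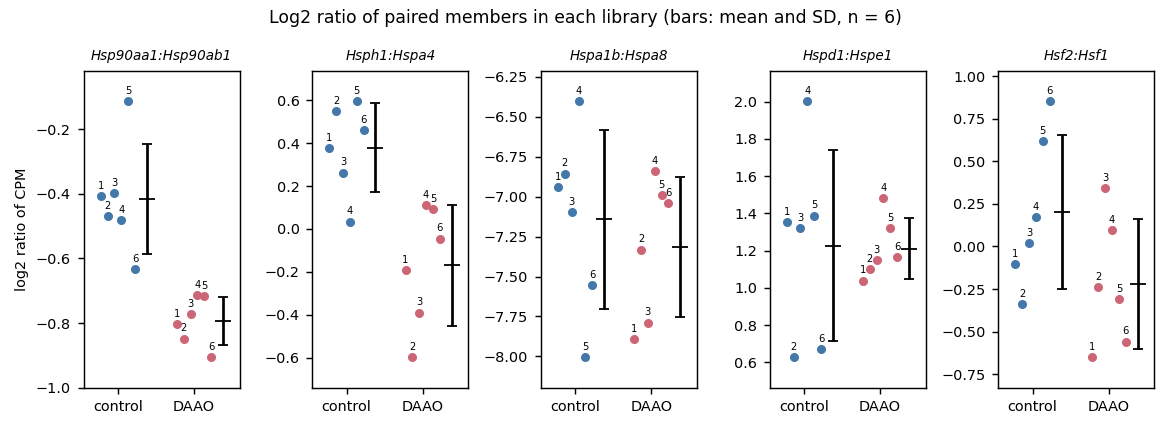
Log2 ratio of the CPM of paired members in each library (points numbered by replicate, bars mean ± SD, n = 6 per group; each panel has its own y axis). All 6 DAAO ratios of Hsp90aa1 to Hsp90ab1 lie below all 6 control ratios, and the groups overlap in the other 4 pairs. The pairs were chosen after their values had been seen.

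Other genes of protein folding were read from 5 lists, and 0 of their tested genes passed in any list. Of 19 co-chaperones of Hsp90 and Hsp70, 16 had negative and 3 positive estimates, with a median of -0.16. Ptges3 (p23), which stabilises Hsp90 complexes, measured 235 ± 44.4 CPM in controls and 177 ± 23.4 in DAAO, with a log2 fold change of -0.41 ± 0.14 and an adjusted p of 0.253 by edgeR. St13 (Hip), which stabilises Hsp70, measured 217 ± 25.1 and 172 ± 24.1 CPM, with a log2 fold change of -0.34 ± 0.12 and an adjusted p of 0.309. Stip1 (Hop), which joins Hsp70 to Hsp90, had an estimate of -0.17 ± 0.16.

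The cytosolic chaperonin TRiC and its helper prefoldin, which fold actin and tubulin, had 12 negative and 1 positive estimates of 13 tested, with a median of -0.10. The 14 genes of folding in the endoplasmic reticulum leaned the other way, with 3 negative and 11 positive and a median of 0.17. The protein disulfide isomerases Pdia4, P4hb and Pdia6 had estimates of 0.32 ± 0.14, 0.27 ± 0.12 and 0.30 ± 0.14, with adjusted p of 0.422, 0.439 and 0.462 by edgeR, while Pdia3, the isomerase with the highest CPM of the list, had an estimate of -0.03 ± 0.15. Sec62, a part of the translocon, measured 223 ± 12.2 CPM in controls and 184 ± 8.05 in DAAO, with a log2 fold change of -0.28 ± 0.09 and an adjusted p of 0.246.

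Mitochondrial folding genes and proteases had 8 negative and 4 positive estimates, with a median of -0.02. Small heat shock relatives and genes of aggregate handling had 7 and 3, with a median of -0.10. Cryab, a small heat shock protein of glia and muscle that overlaps Hspb2, measured 318 ± 166 CPM in controls, where control 2 stood at 647, and 245 ± 31.7 in DAAO. Medians of these lists are set beside the median of 0.00 over all genes tested, and no list was tested against other genes.

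Spread between replicates was larger in controls. The median coefficient of variation of the members was 19.7% in controls and 13.8% in DAAO, with 52 of the 74 larger in controls; over all genes tested it was 28.7% and 18.8%.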

How the data were processed

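Whole-number read counts per gene, not normalised, were used as the authors deposited them in 1 table for all 12 libraries, with gene names, positions and the gene lengths by which levels were divided. Per the submitters' processing notes, the tools included FastQC, HISAT2 2.0.5 and DESeq2 1.20.0, and the genome build was GRCm38 (mm10). Not given in the sources used here are the counting program, its strand setting and its handling of reads that match several genes. Reads of overlapping genes on opposite strands, and of near-identical copies, may therefore be assigned in part to the wrong gene.

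Genes with low counts were removed by filterByExpr of edgeR, applied by group with a minimum count of 10 and a minimum total of 15. The 17002 genes that stayed held at least 99.7% of each library's counts. Counts were scaled with TMM factors and compared as 6 DAAO against 6 control libraries with the robust, two-sided quasi-likelihood test of edgeR 4.0.16 (R 4.3.3). P-values were adjusted over every tested gene by Benjamini-Hochberg, and 0.05 was the threshold. The SE is the absolute log2 fold change over the square root of F, and intervals are 95%. No 2 libraries agreed within sampling noise. Alternatives were DESeq2 1.42.0, limma-voom (limma 3.58.1), other scaling and filters, a replicate block, tissue terms and left-out libraries.

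The members and all lists were chosen with earlier results of these data known. Values were given for 17 preset members, for the 10 with the smallest p in each direction and for the highest per kilobase in each class; other members and pathway genes named were chosen after their values were seen.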

Additional observations from a re-analysis of the deposited data

Results flagged for a closer look

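The CPM of the named members and the 5 log2 ratios were examined for a library far from the other 5 of its group, by the gap to its nearest neighbour over the group's range (Dixon's test at 95%). Of 80 groups examined 4 held such a library, and about 4 are expected by chance, 1 in 20. Hspb6 stood at 36.083 CPM in control 4 and at 6.09 to 10.8 in the other controls, and at 10.993 CPM in DAAO 3 against 5.94 to 7.24 in the other DAAO libraries. DAAO 3 had the highest sum of muscle markers among the DAAO libraries, 494 CPM, and control 4 the highest of all, 2988 CPM. With the muscle level of each library as a term the log2 fold change of Hspb6 was -0.29 instead of -0.85. Control 4 held the highest value of both, and whether the estimate follows the muscle level or another property of this library was not tested. Bag6 stood at 89.868 CPM in control 5, with the other controls at 140 to 162. Hspa2 stood at 27.246 CPM in DAAO 2, with the other DAAO libraries at 34.5 to 38.7.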

How the results depend on the processing

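The number of genes called was 128 and moved to 373 with DESeq2, to 648 without controls 2 and 6 together, the controls with the largest mitochondrial share of counts, and to between 61 and 322 when each library was left out in turn. The libraries whose removal lowered it beyond 1.5 times were controls 1 (80) and 5 (77) and DAAO 1 (78), 2 (65), 3 (73) and 6 (61); removing control 2 raised it (322). The number of members called was 0 in 21 of 23 alternatives. It was 1 with DESeq2 (Hsp90aa1, log2 fold change -0.49, adjusted p 0.0369, where 1.85% of genes were called) and 3 without controls 2 and 6 (Hsph1 -0.63, Hspa4l -0.51 and Dnajb14 -0.42, adjusted p 0.0385, 0.0160 and 0.0369 by edgeR, where 3.63% were called); the cause was not tested. Over its alternatives the adjusted p of Hsp90aa1 ran from 0.0369 to 0.432. Estimates near 0 changed sign: Bag3 to -0.10 without controls 2 and 6; Hspb1 to 0.011 with library totals, 0.13 without controls 2 and 6 and 0.0022 with an oligodendrocyte term; Hsp90b1 to 0.023 with library totals and 0.079 without controls 2 and 6; and Dnajb2 to -0.051 with a muscle term. Leaving out each library gave -0.062 to 0.11 for Bag3, -0.17 to 0.086 for Hspb1, -0.081 to 0.044 for Hsp90b1 and -0.088 to 0.080 for Dnajb2. Whether replicate numbers pair the libraries was not tested. The correlations of same-numbered libraries ran from -0.08 to 0.21, and the control's best partner shared its number for 3 of 6. With the replicate number as a block 187 genes and 0 members were called. Depth limits the members under 10 CPM, whose SE reached 0.97.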
